A study of Rattus norvegicus with 16 samples.

Results

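The rat miRNAs with high numbers are those that were named late, after the abundant and deeply conserved families had been catalogued. All rows whose number after the species prefix and "miR-" was 3000 or higher were taken, with any suffix, which gave 102 of the 722 mature miRNAs counted (14.1%). The older rows fell into 324 numbered below 300 (with let-7), 278 from 300 to below 1000, and 18 from 1000 to below 3000. The rule itself used names and no measured value.

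The counts came from small RNA libraries of dorsal raphe and amygdala tissue from rats 60 days of age. The 2 regions and a pair of rat lines, labelled low responder and high responder, gave 4 groups of 4 libraries each: low responder dorsal raphe, high responder dorsal raphe, low responder amygdala and high responder amygdala. The labels name no treatment, and they do not say whether the libraries of a group came from separate rats or pools, so a p-value here reflects only how these libraries varied, which may be technical. The dorsal raphe is a midbrain nucleus that holds many of the brain's serotonin neurons, and the amygdala is a forebrain structure known for its part in emotional behaviour.

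A miRNA is a short RNA cut from a hairpin precursor, and either arm of the hairpin (5p or 3p) can become the mature strand. It guides a silencing complex to messenger RNAs, mainly through its seed, bases 2 to 8 from the 5′ end. miRNAs found late by deep sequencing tend to come from single-copy hairpins, often within introns of protein-coding genes or opposite known hairpins, and many are of low abundance.

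Mature sequences were taken from RefSeq (GRCr8) and were found for 91 of the 102 miRNAs. None was found for miR-3593-5p. The first set holds the most abundant pair with miR-6331, miR-3547, miR-6321 and miR-6324, with the seed in capitals.
rno-miR-3068-5p: uUGGAGUUcaugcaaguucuaacca
rno-miR-3068-3p: gGUGAAUUgcaguacuccaaca
rno-miR-6331: cUUUGGUGgcuuaguucuuugugc
rno-miR-3547: uGAGCACCaccccucucucagau
rno-miR-6321: uACUGCAGugaguucuaugaagc
rno-miR-6324: uCAGUAGGccagacagcaagcac

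No 2 of the 91 shared a seed with each other. A seed was shared with an older miRNA by 3 of them (3.30%): miR-3065-5p with miR-7a-1-3p, miR-3573-5p with miR-423-5p, and miR-3596d with the 3p strands of several let-7 family members. Among the 553 older rows with a sequence, 160 (28.9%) shared their seed with another row. Their lengths ran from 18 to 25 bases with a median of 22, the same median as in the older rows. Their median GC content was 50.0%, against 47.6% in the older rows.

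By position in the RefSeq annotation, 55 of the 91 lay within the span of a named gene. miR-3547 lay within Baiap3, a gene of dense-core vesicle traffic. miR-6321 lay within Rufy3, which acts in neuronal polarity and organelle transport, and miR-6324 within Brwd1, which codes for a bromodomain protein. miR-3552 lay within Htr2c, the serotonin 2C receptor gene. Strand, and exon or intron, were not checked. No coordinates are given; the build behind the counts was not given in the sources used here.

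A large share of the high-numbered miRNAs were mirror images of older ones: 32 were the reverse complement of an older mature miRNA over at least 15 bases, 19 of them over their whole length, while 24 of the 553 older rows had such a run to another older row. The places of 29 high-numbered miRNAs lay opposite another annotated hairpin, and these were not all among the 32. The pairs below show the complementary run in capitals. Of the high-numbered miRNAs printed, miR-3557-3p was not listed opposite a hairpin.
rno-miR-3065-5p: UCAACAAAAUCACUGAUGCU
rno-miR-338-3p: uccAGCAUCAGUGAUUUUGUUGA
rno-miR-3596a: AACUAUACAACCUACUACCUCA
rno-let-7a-5p: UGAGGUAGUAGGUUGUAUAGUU
rno-miR-3557-3p: ACACAGGACCUGGAGUCAGGAG
rno-miR-378a-5p: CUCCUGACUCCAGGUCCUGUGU

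The 16 libraries held 1741167 to 8134915 counts, and 3 counts, the floor used here, were worth 0.369 to 1.72 CPM (counts scaled to a library of 1000000). Scaling by trimmed mean of M values (TMM) gave low responder dorsal raphe replicate 4 a factor of 0.596, which raises its scaled levels, against 0.871 to 1.27 in the other libraries. This library also had the highest summed scaled level of 5 of 7 marker lists: neuron (278000 CPM, the other 15 at or below 267519), oligodendrocyte (40515, others at or below 16360), vascular (119235, others at or below 60786), muscle (5085, others at or below 1816) and hindbrain (3929, others at or below 470). These sums carry the same factor, which raises each of them, and unscaled sums are not given here. Results that turn on this library are given with and without it. Neuronal miRNAs were abundant in all libraries (6 miRNAs, at least 130769 CPM summed).

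The high-numbered miRNAs were a large share of the names and a small share of the RNA. They made up 14.1% of the rows but 0.174% to 0.331% of the counts of a library, or 4605 to 17612 counts. The rows numbered below 300 held 85.6% to 90.5%, those from 300 to below 1000 held 8.69% to 13.3%, and the 18 from 1000 to below 3000 held 0.269% to 4.37%. The share by group was 0.247% ± 0.017 (SD, n = 4) in low responder dorsal raphe, 0.272% ± 0.049 in low responder amygdala, 0.267% ± 0.042 in high responder dorsal raphe and 0.216% ± 0.042 in high responder amygdala. These ranges overlapped between all 4 groups.

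Their median level over the 16 libraries was 2.80 CPM, against 41.2, 32.6 and 15.3 CPM for the older classes in ascending order of number. A mean of 10 CPM or more was reached by 20 of the 102 (19.6%), against 63.3%, 61.2% and 55.6% of the older classes in the same order. The highest, miR-3068-5p, averaged 626 unscaled CPM and ranked 123 of 722. The highest of the older classes were miR-9a-5p, a neural miRNA, at 135086 CPM, miR-341 at 11058 CPM and miR-1298 at 12003 CPM. Most were still detected: 74 had at least 1 count in every library. At the same time 68 had 3 or fewer counts in at least 1 library.

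**Figure D1:**
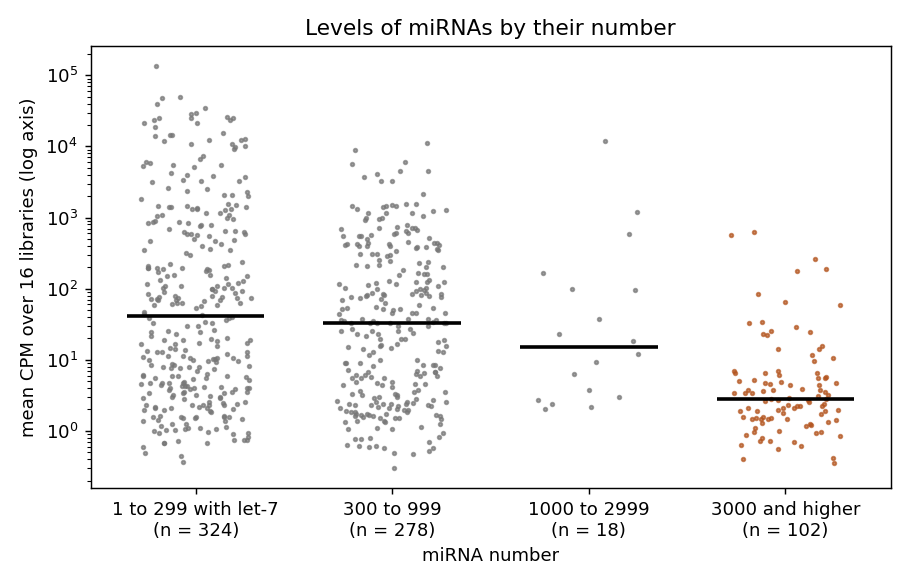
Mean CPM over 16 libraries (log axis) of each miRNA, by number class. The high-numbered class has a median of 2.80 CPM and a top of 626 CPM, while the medians of the older classes lie between 15.3 and 41.2 CPM.

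A few names carried nearly all of these counts. miR-3068-5p held 26.9% of the pooled high-numbered counts, and both arms of miR-3068 together held 49.2%. Adding miR-3593-5p gave 59.6%, the 5 most abundant held 74.5% and the 10 most abundant 85.3%. After miR-3068-5p (mean 623 TMM-scaled CPM) and miR-3068-3p (559 CPM) came miR-3593-5p (245 CPM), miR-6331 (207 CPM), miR-3099 (177 CPM), miR-3559-5p (89.4 CPM), miR-3547 (64.4 CPM), miR-6215 (57.0 CPM), miR-6329 (35.7 CPM) and miR-3085 (33.7 CPM). Seen per library, neighbours in this order overlapped throughout. The remaining 92 each averaged less than miR-3085.

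Of the 102, 78 passed the filter on low counts and were tested with the older rows, 639 in all. The other 24 had 22 to 96 counts over all 16 libraries together, and no difference between groups is given for them.

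**Figure D2:**
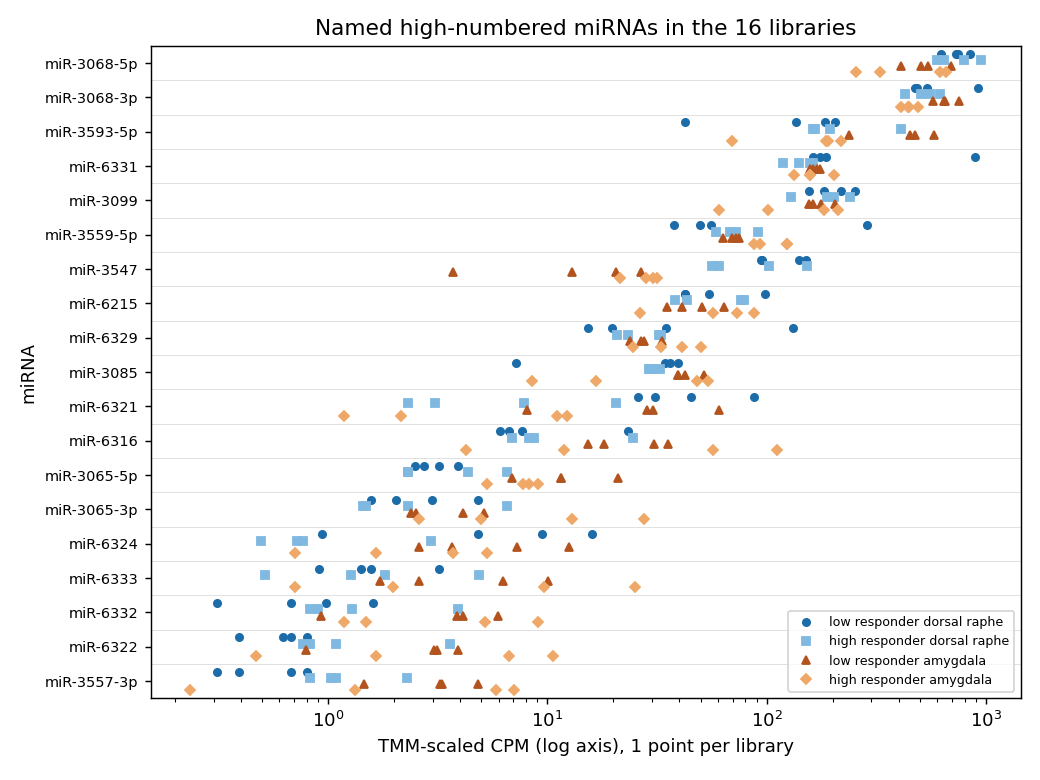
TMM-scaled CPM (log axis) of the named high-numbered miRNAs, 1 point per library, coloured by group. Most rows show the 4 groups intermixed, miR-3547 is split by region, and single libraries stand far out in several rows, such as low responder dorsal raphe replicate 4 for miR-6331 at 895 CPM.

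The arms of a hairpin differed in how evenly they were used. miR-3068, whose hairpin is listed in RefSeq under the symbol Snora58 and lies within Alkbh1, had 47229 counts from the 5p and 39318 from the 3p arm. The 5p share ran from 34.3% to 64.2% over the libraries, with 57.1% ± 7.57 (SD, n = 8) in dorsal raphe and 47.0% ± 10.2 (n = 8) in amygdala. These ranges overlapped. miR-3559, within Zdhhc15, gave 78.3% of its counts from the 5p arm (70.1% to 84.3%), and miR-3593 gave 99.6%.

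The arms of miR-3561 had near-equal counts, 743 for 5p and 744 for 3p, and differed by at most 9 counts in any library. The 5p share stayed between 47.2% and 53.8%. These sequences share a run of 12 bases, in capitals below, although they lie 23 bases apart on the hairpin.
rno-miR-3561-5p: acugugucaAUCCAGGGUAGA
rno-miR-3561-3p: uAUCCAGGGUAGAcacucaga
How reads matching both were treated is not known from the labels or files, and the level of each arm is uncertain.

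The 32 complementary miRNAs were among the least abundant. All had a mean under 10 CPM, and 17 passed the filter. Their median total over 16 libraries was 90.5 counts, against 238.5 for the other 70, and together they held 2.19% of the high-numbered counts.

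Their totals spanned 22 to 531 counts, whereas those of their older partners spanned 22 to 1900994. miR-3596d had 95 counts against 1753249 for let-7f-5p (0.00542%), and miR-3596a had 109 against 761257 for let-7a-5p (0.0143%). miR-3588 had 111 counts against 1900994 for miR-125b-5p, and miR-3556a had 84 against 1494015 for miR-29a-3p. These partners are among the abundant miRNAs of brain. At the other end, miR-3590-3p had 216 counts against 239 for miR-130a-5p (90.4%), and miR-3591 had 235 against 456 for miR-122-5p, the main liver miRNA (51.5%). miR-3575 had 92 counts against 22 for miR-200c-5p (418%), the only pair in which the high-numbered miRNA had the larger pooled count. In all, 19 of the 32 stood under 1% of their partner and 12 between 1% and 100%. The sources used here do not say whether reads were counted by strand, so reads of 1 strand cannot be assigned with certainty in any of these pairs.

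**Figure D3:**
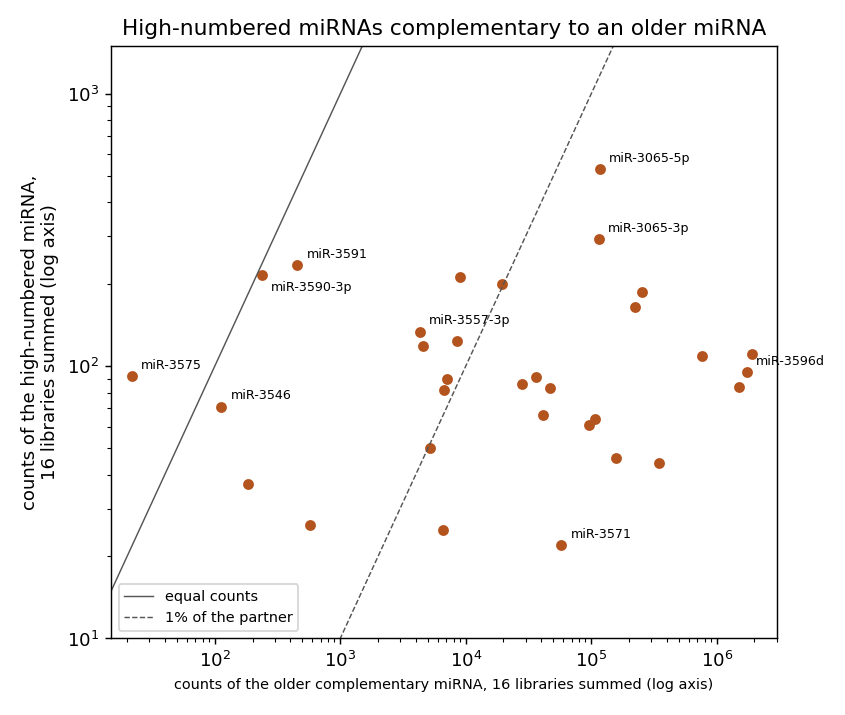
Counts of the 32 high-numbered miRNAs against those of the older miRNA to which they are complementary, 16 libraries summed (both axes log), with lines at equal counts and at 1% of the partner. The high-numbered counts stay between 22 and 531 while the partners reach 1900994.

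To compare the regions, amygdala was set against dorsal raphe, with equal weight for each line. miR-3547 was lower in amygdala. There were 6 miRNAs that were higher there, among them miR-3065-5p, whose partner miR-338-3p went the opposite way. By edgeR's quasi-likelihood test with Benjamini-Hochberg adjustment over 639 rows, 7 of the 78 changed (8.97%), against 24.3% of all rows tested: 6 were higher (background 9.39%) and 1 lower (background 14.9%). At an unadjusted p under 0.05 there were 25 (32.1%, background 39%). With library totals in place of TMM the split was 6 higher and 2 lower, with limma-voom 2 and 2, and with DESeq2 18 and 2. Without low responder amygdala replicate 1, 3 of 81 high-numbered miRNAs tested were called, and without high responder amygdala replicate 1, 3 of 80. Without high responder amygdala replicate 4, 31 of 85 were called. Replicate 4 of the low and replicate 1 of the high responder dorsal raphe libraries stood apart most often. Without both, 36 of 80 were called, 34 higher and 2 lower. The share of all rows called in these alternative fits is not given here, so these counts cannot be set against it.

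miR-3547 read 140.4, 95.6, 94.1 and 151 CPM in the low responder dorsal raphe libraries. In high responder dorsal raphe it read 60.7, 56.2, 153.5 and 102 CPM. In amygdala it read 26.8, 20.6, 13.0 and 3.70 CPM in low responders and 28.2, 30.3, 31.7 and 21.4 CPM in high responders. All 8 dorsal raphe libraries lay above all 8 amygdala libraries, in both lines. The means were 107 ± 38.3 (SD, n = 8) and 22.0 ± 9.59 CPM (n = 8), 5.01-fold lower in amygdala (log2 −2.33, SE 0.33, edgeR adjusted p = 4.65e-05). It was the only 1 of the 78 whose regions did not overlap, where 6.57% of all rows tested did not (1.88% higher and 4.69% lower in amygdala), and it passed in all 24 alternatives.

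miR-3065-5p, within the span of Aatk opposite miR-338, read 3.90, 2.49, 2.74 and 3.20 CPM in low responder dorsal raphe. It read 6.53, 4.34, 2.31 and 2.31 CPM in high responder dorsal raphe. These dorsal raphe values of both lines rest on 4 to 25 counts a library. In amygdala it read 6.88, 11.6, 11.5 and 21.0 CPM in low responders and 9.05, 7.76, 5.29 and 8.23 CPM in high responders. The regions met only at high responder dorsal raphe replicate 1 (6.53 CPM), which lay above high responder amygdala replicate 3 (5.29 CPM). The means were 3.48 ± 1.44 CPM in dorsal raphe and 10.2 ± 4.88 CPM in amygdala (SD, n = 8 each), 2.85-fold higher in amygdala (log2 1.51, SE 0.29, edgeR adjusted p = 0.000865).

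Its partner miR-338-3p, an oligodendrocyte-enriched miRNA, fell from 2151 ± 489 CPM in dorsal raphe to 960 ± 550 CPM in amygdala (SD, n = 8 each; log2 −1.18, SE 0.30, edgeR adjusted p = 0.00762). miR-3065-5p was 0.0866% to 2.15% of miR-338-3p by count in the single libraries. The other arm, miR-3065-3p, differed by 1.23 (log2, SE 0.47) and did not pass (edgeR adjusted p = 0.0613). Its partner miR-338-5p differed by −0.67 (SE 0.26, edgeR adjusted p = 0.0685).

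The other 5 that were higher in amygdala were uneven, and all but miR-6316 averaged under 10 CPM. miR-3557-3p, the reverse complement of miR-378a-5p and within Ppargc1b, had 1 to 7 counts in each dorsal raphe library. It averaged 0.925 ± 0.613 CPM in dorsal raphe and 3.41 ± 2.37 CPM in amygdala (SD, n = 8 each; log2 2.02, SE 0.55, edgeR adjusted p = 0.0118). Its partner differed by −0.22 (log2). The call was lost with limma-voom (adjusted p = 0.120).

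miR-6316 averaged 11.5 ± 7.68 CPM in dorsal raphe and 35.6 ± 34.9 CPM in amygdala (log2 1.62, SE 0.53, edgeR adjusted p = 0.0318). High responder amygdala replicate 1 alone read 111.8 CPM and replicate 4 of that group 4.23 CPM, below all dorsal raphe libraries. miR-6322 differed by 1.86 (SE 0.58, edgeR adjusted p = 0.0252). miR-6332, within Rere, differed by 1.74 (SE 0.55, edgeR adjusted p = 0.0262) and miR-6333 by 1.89 (SE 0.64, edgeR adjusted p = 0.0372). In dorsal raphe, miR-6322 had 1 to 11, miR-6332 2 to 12 and miR-6333 2 to 15 counts a library, the fewest below the floor. The highest library of all 3 was again high responder amygdala replicate 1, at 10.6, 9.05 and 25.0 CPM, and their regions overlapped. Of 23 or 24 alternatives, the call was lost in 9 for miR-6316, 4 for miR-6322, 4 for miR-6332 and 12 for miR-6333.

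The differences of the 78 leaned toward amygdala. The median log2 difference was 0.76 and 63 were positive, against −0.08 and 46.6% over all rows tested. With DESeq2, limma-voom or library totals, 61 to 66 of the 78 were positive. Below a mean of 10 CPM, the median was 0.86 for 58 high-numbered and 0.44 for 174 older rows. At 10 CPM or more, it was −0.04 for 20 high-numbered (9 positive) and −0.30 for 387 older rows. In a fit of the rows with a mean of at least 10 CPM alone, the sign for these 20 turned: the median was 0.29 and 15 were positive, against −0.02 over all rows of that fit.

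The summed level of these 58 was 123, 139, 119.6 and 225 CPM in low responder dorsal raphe. It was 248, 117, 115 and 105 CPM in high responder dorsal raphe. In amygdala it was 279, 239, 206.1 and 141 CPM in low responders and 490.2, 365, 134 and 99.5 CPM in high responders. Replicates 1 and 2 of high responder amygdala were highest, and the lowest library of all was replicate 4 of the same group, so the regions overlapped. The older rows under 10 CPM, summed, ran from 510.1 to 1260 CPM and moved with them across the 16 libraries (Pearson r = 0.967, Spearman rho = 0.879 on log2 values). The sum of the high-numbered rows was lower in deeper libraries (r = −0.729, rho = −0.518 with log2 total counts). These are descriptions over libraries that share their scaling, and the part of depth in the regional tilt was not tested.

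**Figure D4:**
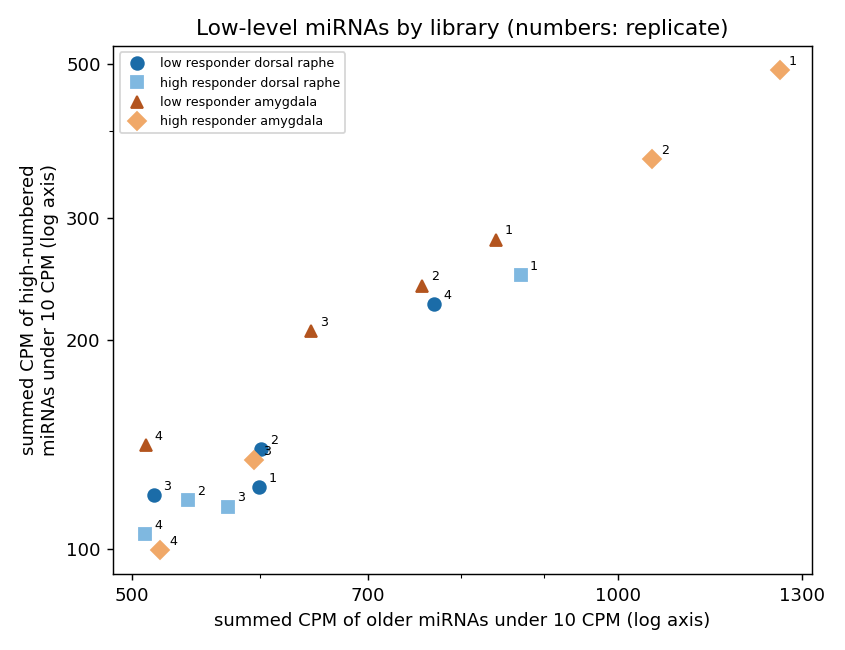
Summed CPM of high-numbered against older miRNAs with means under 10 CPM (both axes log), 1 point per library, by group. The points lie along 1 line, with high responder amygdala replicates 1 and 2 highest, at 490.2 and 365 CPM, and replicate 4 of that group lowest, at 99.5 CPM.

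Markers of other cells also differed between the regions. Of 8 choroid plexus miRNAs, 6 were higher in amygdala, with a summed level of 4556 to 11461 CPM in dorsal raphe and 2459 to 60297 CPM in amygdala. Of 4 oligodendrocyte miRNAs, 3 were lower (10263 to 40515 against 4953 to 13588 CPM), as were all 4 muscle miRNAs (1344 to 5085 against 216 to 402 CPM). Of 4 hindbrain miRNAs, 2 were lower (368 to 3929 against 26.4 to 154 CPM). Of 6 neuronal miRNAs, 2 were higher (130769 to 278000 against 211140 to 267519 CPM). None of 4 vascular (43763 to 119235 against 33080 to 49734 CPM) or 2 erythrocyte miRNAs (78.5 to 228 against 56.4 to 323 CPM) passed. No marker was at 0 in all libraries. In tissue, fewer cells of a type and less RNA per cell cannot be told apart, and the part of the markers in the calls above was not tested.

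miR-3552 lay within the span of Htr2c, a gene that also holds several older miRNAs that were higher in amygdala. Strand was not checked, so a shared transcript is not established. miR-3552 averaged 24.1 ± 9.41 CPM in dorsal raphe and 21.6 ± 12.2 CPM in amygdala (SD, n = 8 each; log2 −0.18, SE 0.34, edgeR adjusted p = 0.708). miR-1298 differed by 4.00, miR-1912-3p by 3.63 and miR-448-3p by 2.92 on the same scale, while miR-764-5p differed by 0.28 and miR-764-3p by −0.93. These miRNAs of 1 gene span thus did not have like values. miR-3068-5p averaged 743.5 ± 120.5 CPM in dorsal raphe and 502 ± 158 CPM in amygdala (SD, n = 8 each), and the difference did not pass (log2 −0.57, SE 0.22, edgeR adjusted p = 0.0613).

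The comparison of high with low responders asks which miRNAs differ between the lines. None of the 78 passed in dorsal raphe, in amygdala, in the interaction of line and region, or averaged over the regions, by edgeR's quasi-likelihood test, where the share of all 639 rows called was 0% in each. At an unadjusted p under 0.05 there were 5 of 78 in dorsal raphe (6.41%, background 11%), 7 in amygdala (8.97%, background 10.2%), 2 in the interaction (2.56%, background 12.7%) and 3 averaged over regions (3.85%, background 4.69%). limma-voom called none of the 78 in any of them. DESeq2 called none in either region, 1 in the interaction (miR-3593-5p, adjusted p = 0.0423) and 1 averaged over regions (miR-6321, adjusted p = 0.0133).

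The lines did not overlap for 4 of 78 in dorsal raphe (5.13%, background 4.23%) and for 7 in amygdala (8.97%, background 8.76%), near the share of all rows. In dorsal raphe, miR-3553 and miR-3557-3p read higher in each high responder library (2.56%, background 0.626%) and miR-6321 and miR-6331 lower (2.56%, background 3.6%). Few counts lie behind the first of these shares. In dorsal raphe, miR-3553 had 4, 3, 6 and 1 counts in low and 11, 8, 8 and 7 in high responders. miR-3557-3p had 2, 3, 2 and 1 counts in low responders, at or below the floor, and 7, 6, 5 and 4 in high responders. In amygdala, both arms of miR-3559 read higher (2.56%, background 5.01%), and miR-3068-3p, miR-3541, miR-3577, miR-3593-5p and miR-6318 lower (6.41%, background 3.76%).

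miR-6321 had the lowest unadjusted p of the 78 for the lines averaged over regions. In dorsal raphe it read 25.9, 45.4, 31.1 and 87.3 CPM in low responders and 7.83, 3.07, 20.6 and 2.31 CPM in high responders. In amygdala it read 28.4, 8.08, 30.4 and 60.8 CPM in low responders and 12.2, 11.1, 2.15 and 1.18 CPM in high responders. The lines were apart in dorsal raphe, and in amygdala they met at low responder replicate 2 (8.08 CPM). The log2 difference of high over low responders was −2.44 (SE 0.76, edgeR adjusted p = 0.358) in dorsal raphe and −2.37 (SE 0.79, edgeR adjusted p = 0.288) in amygdala. The interaction was 0.07 (SE 1.09). Averaged over regions it was −2.40 (SE 0.55, edgeR adjusted p = 0.237), and −2.16 without low responder dorsal raphe replicate 4.

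miR-6324 read 0.937, 9.50, 16.05 and 4.81 CPM in low responder and 2.94, 0.723, 0.494 and 0.770 CPM in high responder dorsal raphe. In amygdala it read 3.67, 12.5, 2.60 and 7.26 CPM in low responders and 5.32, 3.70, 1.65 and 0.706 CPM in high responders. The high responder dorsal raphe values rest on 9, 4, 3 and 3 counts, at or near the floor, and the lines overlapped in both regions. The difference was −2.79 (SE 0.82, edgeR adjusted p = 0.358) in dorsal raphe and −1.31 (SE 0.77, edgeR adjusted p = 0.628) in amygdala.

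**Figure D5:**
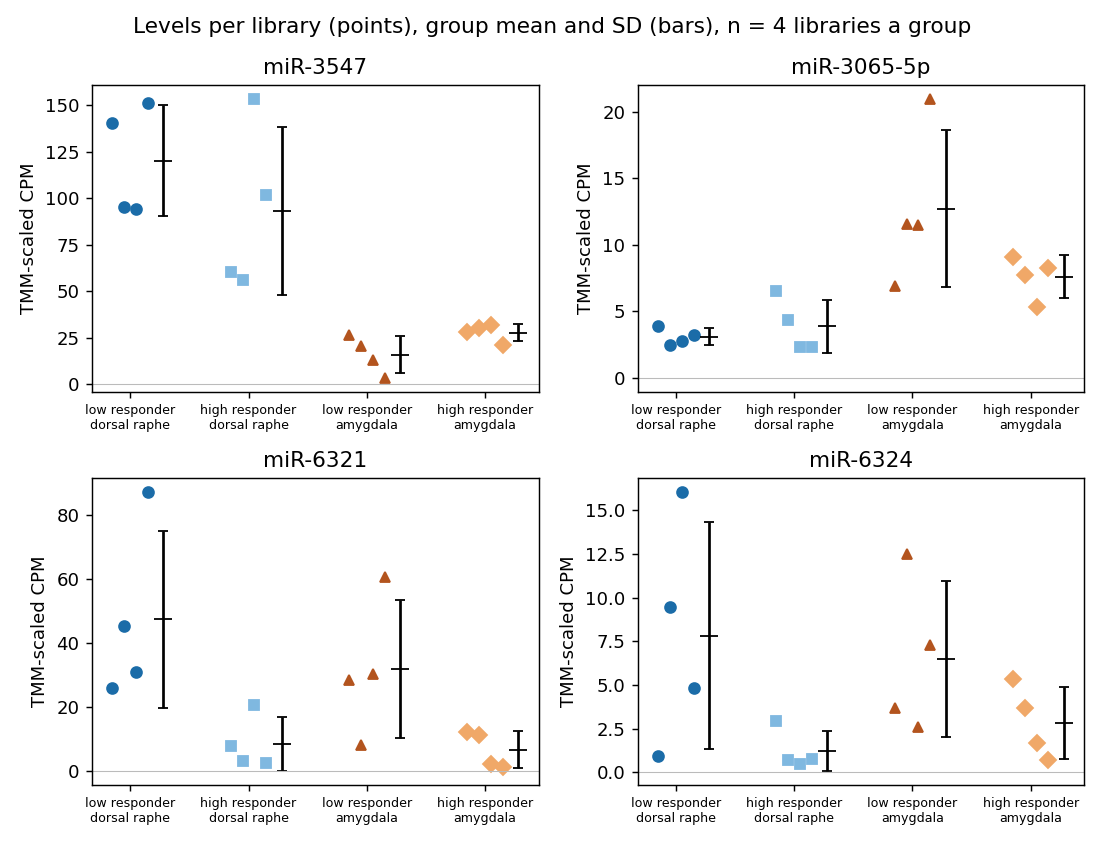
TMM-scaled CPM of miR-3547, miR-3065-5p, miR-6321 and miR-6324 in each library (points), with the group mean and SD (bars, n = 4). miR-3547 is split by region at 31.7 to 56.2 CPM. The mean of miR-6321 is lower in high responders in both regions, with wide spread. Its lines overlap in amygdala, and no line difference of it passed by edgeR's test.

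miR-3593-5p had different values in the lines in amygdala, and no line difference of it passed. In amygdala it read 582, 453, 476 and 236.5 CPM in low responders and 186, 219.2, 191 and 69.9 CPM in high responders, which did not overlap. In dorsal raphe it read 185, 205, 136 and 42.5 CPM in low responders and 409.9, 194, 162 and 166 CPM in high responders, which did overlap. The difference was −1.39 (SE 0.47, edgeR adjusted p = 0.291) in amygdala and 0.71 (SE 0.47, edgeR adjusted p = 0.726) in dorsal raphe, and the interaction was −2.10 (SE 0.66, edgeR adjusted p = 0.202). The dorsal raphe difference rested on low responder replicate 4 (42.5 CPM) and high responder replicate 1 (409.9 CPM): without both it was 0.06 (SE 0.38, edgeR adjusted p = 1.00), and the interaction was −1.42 (SE 0.51, adjusted p = 0.480).

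miR-6331 was the steadiest of the abundant high-numbered miRNAs but for 1 library. It read 163, 186, 176 and 895 CPM in low responder dorsal raphe, and the other 12 libraries lay between 119 and 203 CPM. The line difference in dorsal raphe was −1.29 (SE 0.44, edgeR adjusted p = 0.358), and −0.15 without low responder dorsal raphe replicate 4. miR-3559-3p read 122.5 CPM in that library, where its group otherwise lay at 10.6 to 19.8, and its interaction of 1.97 (SE 0.81, edgeR adjusted p = 0.309) became 0.39 (adjusted p = 0.919) without it. miR-3065-3p differed by 1.71 (SE 0.64, edgeR adjusted p = 0.403) between the lines in amygdala, where high responder replicates 1 and 2 read 27.7 and 12.9 CPM and the other 6 libraries 2.39 to 5.14 CPM.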

How the data were processed

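Small RNA libraries of 2 brain regions and a pair of rat lines, 4 for each combination, were deposited as read counts per mature miRNA, not normalised. Named in the submitters' processing notes are cutadapt 1.3.1, Bowtie2 and bedtools 2.14.2. Not given in the sources used here were their settings, the genome build, and how strand and shared reads were handled. RNA was extracted with miRNeasy kits, per the labels' protocols. No pair of libraries was a copy (lowest chi-square per degree of freedom 50.5 over 120 pairs).

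Rows were filtered with filterByExpr (minimum count 10, minimum total 15), scaled by TMM and tested with the quasi-likelihood test of edgeR 4.0.16 (R 4.3.3), robust, in 1 model with 4 group means over 16 libraries, with Benjamini-Hochberg adjustment over 639 rows and a threshold of 0.05. Levels are TMM-scaled CPM, and percentages are of unscaled counts. Scripts were tested on simulated data. DESeq2 1.42.0, limma 3.58.1 (voom), library totals, other filters, omitted libraries and a replicate block were the alternatives. The averaged line difference was added after seeing the data.

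The members and lists were chosen with earlier results of these data known. Named were the 10 of highest mean CPM, each past the threshold in any comparison, the 3 of lowest p in each line comparison, and miR-3547, miR-6321, miR-6324 and miR-6331. Older miRNAs were named for a shared seed, a complementary run, the top of their class or a marker list. Other members named for non-overlap, arm use, low or high ratios or the gene whose span holds them were picked after their values were seen. Between the amygdala libraries of the lines, same-number correlations were 0.69, 0.29, 0.21 and 0.51, all above the pairing criterion of 0.1. Elsewhere not every number was above it, and no label explains the numbers. The main model did not use replicate numbers, so the line differences above are unpaired. A block on these numbers was an alternative only. Intervals from counts cover counting error only.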

Additional observations from a re-analysis of the deposited data

Results flagged for a closer look

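The highest or lowest of 4 libraries stood apart in 12 of 80 combinations of group and result tested. It lay farther from the rest, relative to the range of the group, than Dixon's 95% critical value. The results were the named miRNAs and the members' share of counts. These combinations share libraries and scaling, so the number flagged cannot be set against a chance rate. Low responder dorsal raphe replicate 4, the library with the TMM factor of 0.596, accounted for 6. It read 920.3 CPM for miR-3068-3p (others of the group 474 to 541), 895 for miR-6331 (163 to 186), 288 for miR-3559-5p (37.9 to 55.8), 131 for miR-6329 (15.4 to 34.6) and 23.2 for miR-6316 (6.09 to 7.69). It was the lowest for miR-3085, at 7.21 CPM (34.2 to 39.5).

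High responder dorsal raphe replicate 1 accounted for the other 6. It read 409.9 CPM for miR-3593-5p (162 to 194), 24.5 for miR-6316 (6.87 to 8.72), 3.59 for miR-6322 (0.770 to 1.08), 3.92 for miR-6332 (0.824 to 1.28), 2.94 for miR-6324 (0.494 to 0.770) and 6.53 for miR-3065-3p (1.45 to 2.31). The last 4 rest on 9 to 20 counts in that library.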

How the results depend on the processing

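Of the named results, 388 values under an alternative kept their direction and side of the threshold. Another 30 lost a call, 2 gained a call, and none changed sign. Line and interaction results were not called in the main fit and had no call to lose, so the 388 do not measure stability. All 30 losses fell among the 7 regional calls. Sizes also moved: the miR-6331 line difference in dorsal raphe ran from −1.45 to −0.12. The 2 gained were the DESeq2 calls of miR-3593-5p (interaction) and miR-6321 (averaged lines), where 1 member each was called against 0. The 7 regional calls became 20 with DESeq2, 4 with limma-voom, 14 without both shallowest libraries and, added after seeing the data, 36 without dorsal raphe replicate 4 of the low and replicate 1 of the high responders. Leaving out 1 library gave 3 to 31: 3 without low or high responder amygdala replicate 1, 4 without low responder dorsal raphe replicate 3, 19 without low responder dorsal raphe replicate 4 or high responder amygdala replicate 3, 20 without low responder amygdala replicate 4, 21 without high responder dorsal raphe replicate 1, and 31 without high responder amygdala replicate 4. The number of members tested also changed when libraries were left out, and the share of all rows called in these fits is not given here. The cause was not tested. With a replicate block within each line the regional calls numbered 13 (12 higher, 1 lower) and miR-6316 was lost (log2 1.33, adjusted p = 0.0527); the block within each region gave 0 line calls. Without miR-3068-5p, the share of counts was 0.177% in low responder dorsal raphe, 0.217% in low responder amygdala, 0.185% in high responder dorsal raphe and 0.172% in high responder amygdala. The TMM-scaled sum gave 0.277% in low responder dorsal raphe. The median of all rows for the lines in dorsal raphe was −0.06 with TMM and 0.14 with library totals. The median of the 78 for the lines in amygdala was 0.25 with edgeR and −0.29 with limma-voom. Of the members, 68 had 3 or fewer counts in at least 1 library. The part of depth in this was not tested.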
